A study of Homo sapiens with 42 samples.

Results

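The comparison described here is that of doxycycline with no doxycycline in RPMI-8226 cells that carry an inducible control hairpin. RPMI-8226 is an established human line of malignant plasma cells (multiple myeloma), and it was stably infected with a doxycycline-inducible shRNA, either a control shRNA or one against BMI1, a subunit of the Polycomb repressive complex PRC1. The arrays were chosen by their titles: 9 arrays of the control-shRNA line with 100 ng/ml doxycycline (3 each at 24, 32 and 48 h) and 9 of the same line without it at the same times, 18 of the 42 arrays of the series. All 42 arrays entered the shared estimate of variance behind every p-value, also those of the control-shRNA line. The 9 dosed and 9 undosed BMI1-shRNA arrays of the same times were used besides where the lines were set side by side. The 3 arrays of each line at 0 h entered only the variance. All groups share the parental line, the stable infection and a medium with 1% FBS. Doxycycline is also the switch of the hairpin, so an effect of doxycycline and one of the control hairpin cannot be told apart, and each hairpin is represented by a single infected line.

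Doxycycline is a tetracycline, an antibiotic class that blocks bacterial ribosomes. In inducible vectors it changes the binding of a tetracycline-responsive repressor or activator to the promoter of the hairpin, which the RNA interference machinery then cuts into a short guide RNA. In animal cells tetracyclines are also known to slow protein synthesis on the mitochondrial ribosome, to bind divalent metal ions and to inhibit matrix metalloproteinases, and double-stranded RNA can switch on interferon-stimulated genes. A control hairpin line is profiled because such responses would otherwise be read as effects of the targeted gene.

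Transcripts were read on Affymetrix U133 Plus 2 arrays, which measure each gene through one or more groups of probes (probe sets). The deposited MAS5 signals are on a linear scale. The median signal over the 42 arrays ran from 16 to 22.5. Fold changes were taken as differences of log2(signal + 5.4) within each time and averaged over the 3 times, a scale that understates changes of dim genes. They are given with limma standard errors. A gene is named as called where its limma p, adjusted by Benjamini-Hochberg over the 14704 genes tested, was under 0.05. Errors of signals are SDs. Replicates are numbered in the labels with no statement that they came from separate cultures. The p-values therefore reflect the spread between arrays alone, and the number of arrays limits the precision. On the 18 control-line arrays the cells read as plasma cells: 10 of 11 plasma cell markers were at or above the array's median on every array, while SLAMF7 was on none. The summed signal of the 11 ran from 20339 to 25096 with doxycycline and from 20025 to 25668 without it. Summed markers of T cells (16.2 to 63.2 with doxycycline, 28.7 to 63.8 without) and of monocytes (16.3 to 40.4, against 12.6 to 39.9) were low, and CD14, LYZ and LCK were below the array's median on all 18, while CSF1R was at or above it on 9 and CD3E on 6. The B cell factor PAX5 (21.5 to 43.7 with doxycycline, 26.6 to 60.7 without), the globin HBB (24.7 to 52.6, against 25.3 to 39.3) and the collagen COL1A1 (92.2 to 142.1, against 82.6 to 127.8) were at or above it on all 18. The summed signal of 4 fibroblast markers ran from 135.0 to 186.8 with doxycycline and from 134.0 to 173.8 without it. The epithelial genes EPCAM (2821 to 3382 with doxycycline, 2481 to 3297 without) and KRT18 (1451 to 1778, against 1417 to 1811) were bright in both groups, KRT8 and CDH1 ran from 24.6 to 55.5 with doxycycline and from 33.5 to 65.8 without it, and KRT19 was below the median on all 18. RNA quality was close in the groups: for GAPDH the 3-prime over 5-prime signal ratio was 1.03 ± 0.0385 with doxycycline and 1.02 ± 0.0372 without it (n = 9 each, two-sided exact permutation within times, p = 0.486). The probe set of BMI1, which also reads the COMMD3-BMI1 readthrough, read 1243 ± 69.8 with doxycycline and 1214 ± 54.2 without it in this line (log2 fold change 0.03 ± 0.06, adjusted p = 0.981).

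Few genes moved when the control-shRNA line received doxycycline. Of 14704 genes 19 were called (0.129%), 9 higher (0.0612%) and 10 lower (0.068%), and 882 (6%) had an unadjusted p under 0.05. The lower ones were led by SLITRK5, a membrane protein of neurons that organises synapses, SLC18B1, a vesicular transporter of polyamines, and CWC27, a cyclophilin of the spliceosome. The higher ones included B3GNT3, a glycosyltransferase, TMT1A, a thiol methyltransferase, and the caveolins CAV1 and CAV2. On this scale SLITRK5 and B3GNT3 changed by at least 2-fold (0.0136% of genes), B3GNT3 against undosed signals that all lay under the array medians, so that its size depends on the value added before the logarithm. Of the called genes 16 of the 19 changed by less than 1.5-fold, and the median absolute log2 fold change of the called genes was 0.30. Each of the 19 had the same sign at 24, 32 and 48 h, which choosing genes by the mean of these times favours. The weakest calls were those of DEPTOR, CAV2, MT2A and SLC17A5, lost on leaving out any of 14, 9, 4 and 3 of the 18 arrays. With the 18 control-line arrays alone 13 genes were called, and these 4, BCAT1 and PRDM1 were not. Of the other genes, ING3 and TMT1A lost the call as means of their probe sets. B3GNT3 and CAV1 each lost it in a mean of 2 of the 3 times, settings chosen after seeing the data. B3GNT3 also did not pass a stricter filter on low signal. In the same test the BMI1-shRNA line gave 1220 called genes (8.3%). In bulk RNA a lower level per cell and fewer cells that express a gene cannot be told apart.

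**Figure D1:**
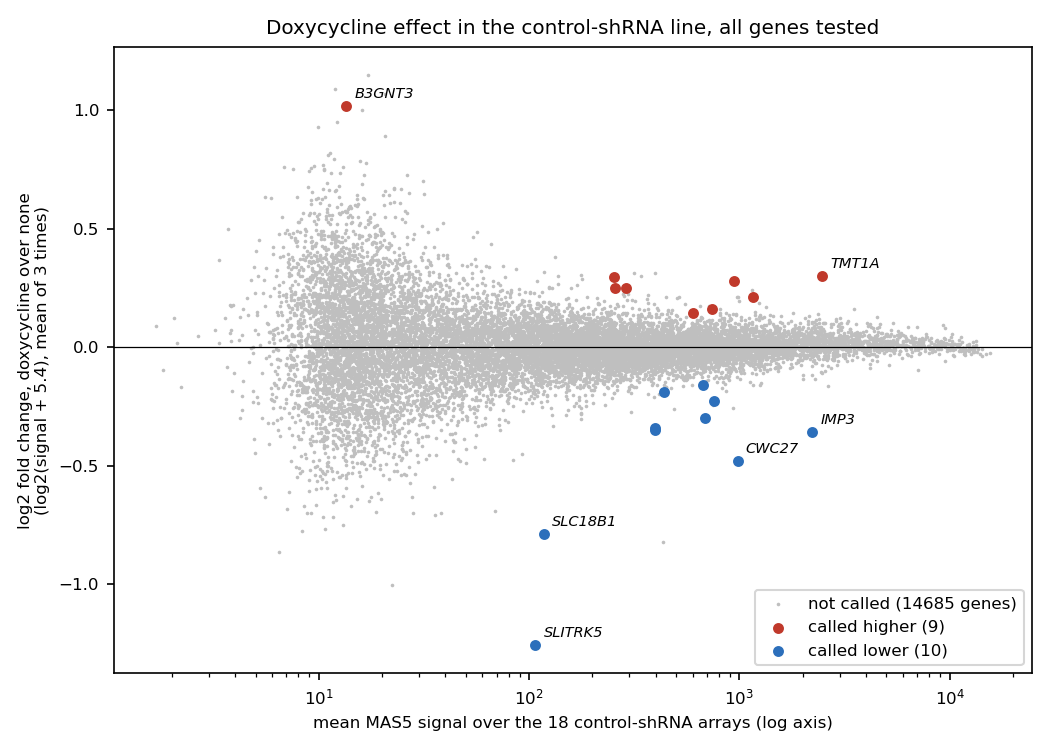
Each point is 1 of the 14704 genes, with its mean MAS5 signal over the 18 control-shRNA arrays on a log axis (x) and its log2 fold change, doxycycline over none, averaged over 24, 32 and 48 h (y). The 9 genes called higher are red and the 10 called lower are blue; SLITRK5 and SLC18B1 lie below the cloud at signals near 100, B3GNT3 lies among dim genes, and bright genes cluster at 0.

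Across all genes the median log2 fold change was 0.0034, and the 5th and 95th percentiles were -0.24 and 0.27. The median standard error was 0.052 for genes with a mean signal of at least 100 and 0.20 for dimmer ones. For 11716 genes (79.7%) the 95% interval of the change lay within 1.5-fold in either direction, and among the 7920 brighter genes this held for 7903 (99.8%).

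SLITRK5 had the largest fall. Its signal was 67.7, 67.6 and 54.1 at 24 h, 56.4, 69.3 and 57.5 at 32 h and 58.9, 55.0 and 61.7 at 48 h with doxycycline, against 153.6, 174.2 and 149.4, then 152.3, 152.6 and 143.6, then 151.6, 152.2 and 143.9 without it. All 9 dosed arrays lay below all 9 undosed ones, and the level differed little between times within either group. The fall was 2.39-fold (log2 fold change -1.26 ± 0.09, adjusted p = 9.25e-12), and it was already -1.27 ± 0.16 at 24 h. A dim additional probe set of the gene had the same sign (8.46 with doxycycline, 14.5 without) and was not called. Other SLITRK genes and the LRRTM genes were not among the genes tested. Of 7 tested genes of their synaptic partners (PTPRD, PTPRF, PTPRS, NLGN1, NLGN2, NLGN4X and NRXN2) none was called, with changes from -0.10 to 0.22. With 0.129% of all genes called, this count is no result about them.

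SLC18B1 fell 1.73-fold, with the smallest adjusted p of all genes. It read 83.4, 83.2 and 83.2 at 24 h, 82.8, 76.7 and 74.4 at 32 h and 83.9, 89.4 and 105.0 at 48 h with doxycycline, against 138.0, 165.9 and 146.3, then 142.7, 137.4 and 142.5, then 176.7, 152.6 and 149.2 without it. The groups did not overlap at any time or over the 9 arrays of each. The log2 fold change was -0.79 ± 0.05 (adjusted p = 3.01e-15). SLC17A5, the lysosomal exporter of sialic acid known as sialin, fell by 0.16 ± 0.03 (adjusted p = 0.0147). Its lowest, median and highest signals were 584.7, 632.1 and 666.1 with doxycycline and 644.3, 708.5 and 752.6 without it, so the groups overlapped. The other 26 of 28 tested genes of their list, which are lysosomal membrane proteins and hydrolases, proton pump subunits and autophagy factors, were not called, and the median of the 28 was -0.0040.

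Factors of RNA processing came next. CWC27 read 788.9, 878.5 and 773.3 at 24 h, 926.7, 827.2 and 775.3 at 32 h and 849.1, 761.4 and 776.4 at 48 h with doxycycline, against 1233.9, 1167.4 and 1162.9, then 1063.2, 1120.0 and 1181.8, then 1089.1, 1104.0 and 1157.1 without it. Every dosed array was below every undosed one, a fall of 1.4-fold (-0.48 ± 0.04, adjusted p = 1.89e-10). A further probe set of CWC27 was called in the same direction in the fit of all probe sets (-0.39 ± 0.05), and the third, a dim one, had the same sign. IMP3, a protein of the U3 small nucleolar ribonucleoprotein that processes ribosomal RNA, read from 1610 to 2360 (median 1945) with doxycycline and from 2203 to 2634 (median 2483) without it. Its groups overlapped over the 9 arrays but not within a time, and the change was -0.36 ± 0.05 (adjusted p = 9.81e-05). The other 34 of the 36 tested members of the spliceosome and snoRNP list were not called, and the list's median was 0.0031.

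ING3, a chromatin reader of the NuA4 histone acetyltransferase complex, read 341.9, 336.0 and 336.4 at 24 h, 370.1, 399.8 and 342.8 at 32 h and 328.5, 317.6 and 375.7 at 48 h with doxycycline. Without it the signals were 446.3, 477.3 and 445.0, then 426.4, 464.2 and 483.6, then 464.5, 407.3 and 407.4. The 9 dosed arrays lay below the 9 undosed ones (-0.35 ± 0.05, adjusted p = 5.27e-05). Its other 3 probe sets had the same sign, and none of them was called. ING3 was the member called among 26 tested genes of NuA4, the ING family and histone acetylation, with a median of 0.01.

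CHPT1, the cholinephosphotransferase of the last step of phosphatidylcholine synthesis, fell, and LPGAT1, an acyltransferase for lysophospholipids, rose. CHPT1 read 606.1, 632.1 and 651.0 at 24 h, 611.2, 570.9 and 600.6 at 32 h and 656.3, 610.4 and 599.8 at 48 h with doxycycline, against 793.2, 757.7 and 804.5, then 728.5, 722.1 and 730.8, then 804.8, 734.9 and 742.5 without it. Its groups did not overlap (-0.30 ± 0.03, adjusted p = 1.86e-07). LPGAT1 read from 921.6 to 1171 (median 1022) with doxycycline and from 805.9 to 939.7 (median 831.3) without it, and its groups overlapped over the 9 arrays but not within a time (0.28 ± 0.04, adjusted p = 1.04e-05). All 3 LPGAT1 probe sets had the same sign and 2 were called. The other 28 of 30 tested phospholipid synthesis genes were not called, and the list's median was -0.01.

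With CWC27, ING3, SLC18B1 and SLITRK5, CHPT1 made up the 5 genes whose 9 dosed signals were all below the 9 undosed ones (0.034% of genes). A single gene had all 9 above (0.0068%): PPP2R5E, a regulatory subunit of the phosphatase PP2A, which read from 957.1 to 1350 with doxycycline and from 833.5 to 938.7 without it. Its change of 0.21 ± 0.05 was not called (adjusted p = 0.0822).

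**Figure D2:**
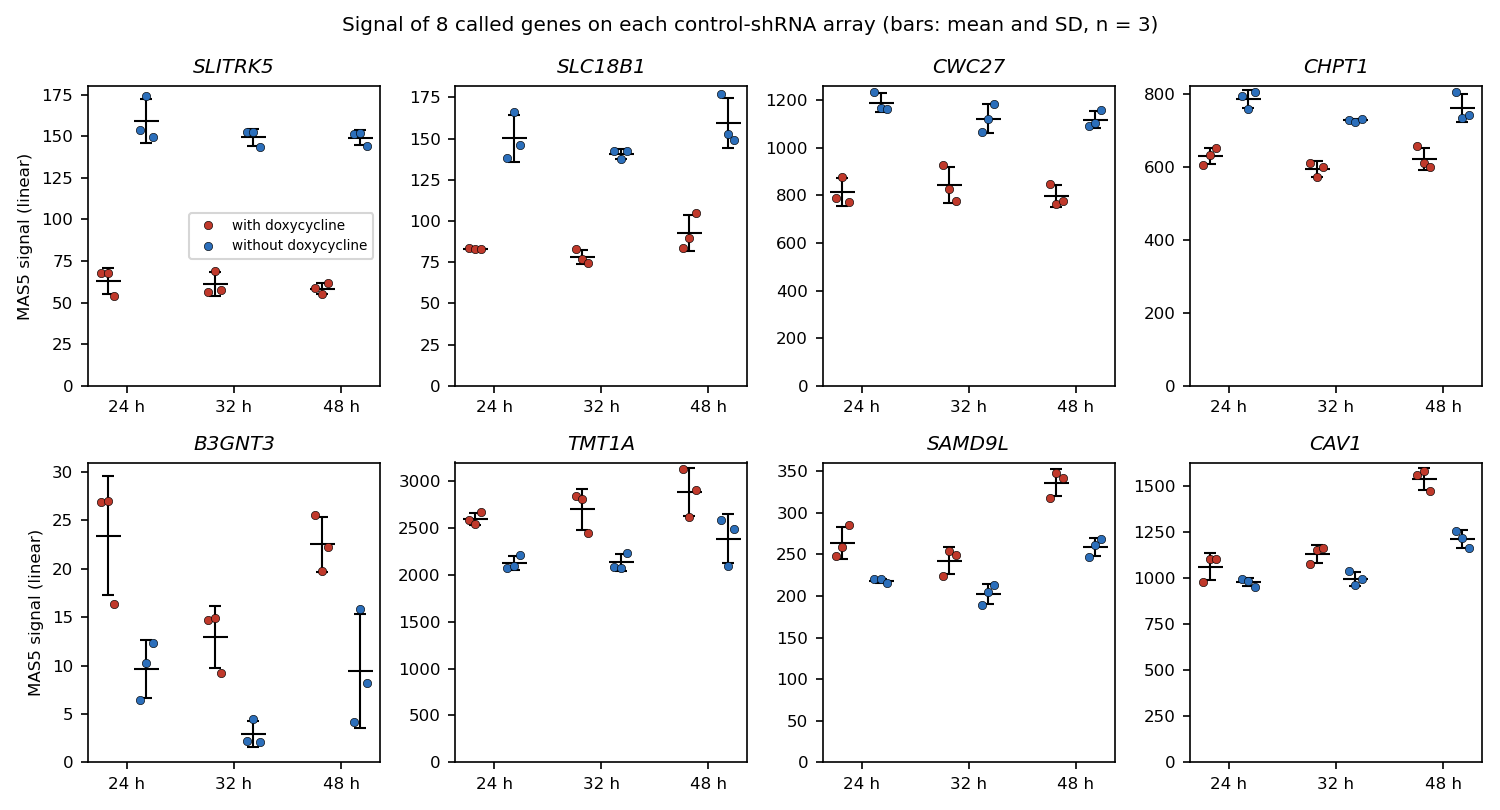
MAS5 signal on a linear axis from 0 (y) of 8 called genes on each control-shRNA array at 24, 32 and 48 h (x), with doxycycline (red, left of each pair) and without (blue, right); horizontal bars are means and error bars SDs of 3 arrays. SLITRK5, SLC18B1, CWC27 and CHPT1 show no overlap between dosed and undosed arrays at any time, whereas B3GNT3 has a floor-level signal with wide scatter.

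B3GNT3, a beta-1,3-N-acetylglucosaminyltransferase of mucin-type glycans, had the largest rise of a called gene and the lowest level. It read 26.9, 27.0 and 16.3 at 24 h, 14.7, 14.9 and 9.2 at 32 h and 25.5, 19.8 and 22.2 at 48 h with doxycycline, against 6.4, 10.3 and 12.3, then 2.2, 4.5 and 2.1, then 4.2, 15.8 and 8.2 without it. The groups were apart at each time and overlapped over the 9 arrays, and all 9 undosed signals lay below the array medians, so no exact fold is given. The log2 change was 1.02 ± 0.17 with 5.4 added to the signals (adjusted p = 0.00104), 1.46 with 1 added and 0.56 with 18.8 added, the median of all values, and the gene was called with each.

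TMT1A, a thiol methyltransferase of the endoplasmic reticulum and lipid droplets also known as METTL7A, was the brightest gene that rose. Its signals were 2585, 2535 and 2665 at 24 h, 2840, 2801 and 2447 at 32 h and 3129, 2612 and 2900 at 48 h with doxycycline, against 2074, 2090 and 2209, then 2083, 2075 and 2233, then 2580, 2093 and 2482 without it. Within each time the dosed arrays were above the undosed ones (0.30 ± 0.04, adjusted p = 1.60e-05). A second probe set was also called (0.44 ± 0.09), and 1 of the 4, a dim one, had the opposite sign.

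The caveolins form the scaffold of caveolae, small pits of the plasma membrane, and their genes are neighbours on chromosome 7. CAV1 read 982.9, 1103.5 and 1107.7 at 24 h, 1078.7, 1154.4 and 1166.4 at 32 h and 1562.7, 1582.6 and 1473.1 at 48 h with doxycycline, against 995.1, 987.6 and 955.6, then 1038.5, 961.8 and 996.0, then 1260.0, 1220.9 and 1164.5 without it. The groups overlapped at 24 h and were apart at 32 and 48 h. The mean change was 0.21 ± 0.03 (adjusted p = 5.27e-05), and by time it was 0.12 ± 0.05, 0.18 ± 0.05 and 0.34 ± 0.05. CAV2 read from 217.7 to 357.4 (median 272.9) with doxycycline and from 188.4 to 282.4 (median 224.0) without it, a change of 0.25 ± 0.05 (adjusted p = 0.0199), with no overlap within a time. DEPTOR, an inhibitor of the growth kinase mTOR that is abundant in some myelomas, read from 703.4 to 960.4 (median 741.3) with doxycycline and from 633.0 to 820.6 (median 695.6) without it. Its change of 0.16 ± 0.04 had the adjusted p nearest to the threshold, 0.0467. These 3 were called among 27 tested caveolar and mTOR genes, a list drawn up around them (0.0612% of all genes were called higher). Of the 27 changes 13 were above 0, and the median was -0.0011.

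SAMD9L, an interferon-inducible restrictor of growth and of viruses, rose, and IRF2, a transcription factor that represses interferon genes, fell. SAMD9L read 248.4, 258.4 and 285.6 at 24 h, 223.7, 253.9 and 249.5 at 32 h and 317.4, 348.2 and 342.4 at 48 h with doxycycline, against 219.9, 219.9 and 215.5, then 189.7, 205.0 and 213.3, then 246.6, 261.2 and 268.0 without it. The groups were apart at each time (0.30 ± 0.04, adjusted p = 5.67e-05). IRF2 read from 321.4 to 406.2 (median 340.8) with doxycycline and from 379.2 to 533.0 (median 436.3) without it, with no overlap within a time (-0.34 ± 0.05, adjusted p = 5.53e-05). The other 38 of 40 tested interferon-stimulated and interferon-pathway genes were not called, and the list's median was -0.01. IFIT1, an interferon-induced sensor of viral RNA, read 65.5 ± 8.91 with doxycycline and 53.9 ± 10.2 without it (0.27 ± 0.17, adjusted p = 0.873). Among 18 tested genes of the RNA interference machinery none was called. DICER1, the enzyme that cuts hairpins, had a change of -0.01 ± 0.05.

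MT2A, a metallothionein that binds zinc and copper, fell by 0.23 ± 0.05 (adjusted p = 0.0123). It read 738.5, 805.7 and 790.2 at 24 h, 836.9, 660.2 and 690.2 at 32 h and 595.4, 588.9 and 565.7 at 48 h with doxycycline, against 873.8, 937.6 and 892.7, then 892.3, 743.4 and 868.4, then 816.4, 673.7 and 639.7 without it. The groups were apart at 24 and 48 h and overlapped at 32 h. MT1X, of the same metallothionein cluster on chromosome 16, had the same sign and was not called (-0.17 ± 0.05, adjusted p = 0.46; 779.9 ± 74.4 with doxycycline, 878.0 ± 63.6 without). Of 8 tested metallothioneins 7 had a negative change, also after quantile normalization, and 1 was called. For 7 of the 8 the probe set is of the kind marked as able to cross-hybridise, so near-identical members of the family cannot be told apart. The list of 27 metallothionein and zinc genes had a median of -0.01.

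Metallothionein promoters carry metal response elements, the sites of the zinc-sensing factor MTF1, which is why the promoters of the called MT2A and of MT1X are shown. They run from 250 bases before to 50 after the start of the gene, from RefSeq on GRCh38.p14, at chr16:56608334-56608633 and chr16:56682220-56682519, both on the plus strand. Capitals mark matches to the core TGCNCNC on either strand, which may overlap.
MT2A: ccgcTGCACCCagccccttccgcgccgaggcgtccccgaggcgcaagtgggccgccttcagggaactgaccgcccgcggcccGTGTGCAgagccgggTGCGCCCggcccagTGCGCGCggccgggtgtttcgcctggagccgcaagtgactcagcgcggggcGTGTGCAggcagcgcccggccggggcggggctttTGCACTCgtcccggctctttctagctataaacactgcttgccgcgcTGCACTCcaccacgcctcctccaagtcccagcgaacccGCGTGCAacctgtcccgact
MT1X: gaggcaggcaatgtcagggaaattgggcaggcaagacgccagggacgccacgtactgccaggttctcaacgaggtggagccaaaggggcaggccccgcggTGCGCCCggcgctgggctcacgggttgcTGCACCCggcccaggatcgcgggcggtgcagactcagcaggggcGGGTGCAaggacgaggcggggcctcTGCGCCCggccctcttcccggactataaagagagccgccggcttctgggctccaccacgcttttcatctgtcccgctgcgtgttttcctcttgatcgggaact
MT2A held 8 matches and MT1X 4. MT1H, chosen after its values were seen, held 8 as well, with a change of -0.02 (adjusted p = 0.999), and MT1B held 5. The core is common, at 1 or more matches in 55.2% of 27305 RefSeq promoters of this length, while 8 or more stood in 24 of them (0.0879%). A match of letters is not evidence of binding. Promoters were found for 15 of the 19 called genes.

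BCAT1, the cytosolic transaminase of branched-chain amino acids, read 399.0, 387.8 and 372.1 at 24 h, 409.5, 425.9 and 384.2 at 32 h and 432.7, 418.8 and 447.4 at 48 h with doxycycline. Without it the signals were 444.4, 415.5 and 412.3, then 475.1, 426.7 and 473.5, then 518.0, 511.3 and 528.6. The groups were apart at each time, at 32 h by less than 1 unit of signal (-0.19 ± 0.03, adjusted p = 9.04e-04). All 4 BCAT1 probe sets fell in sign and 2 were called. GIRGL, a long noncoding RNA that limits glutaminase synthesis, read from 275.0 to 359.4 (median 310.6) with doxycycline and from 213.1 to 302.6 (median 256.7) without it, apart at each time (0.25 ± 0.04, adjusted p = 4.75e-04). BCAT1 was the member called among 19 tested genes of branched-chain amino acid use.

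PRDM1, the transcription factor BLIMP1 that drives plasma cell differentiation, read 624.9, 613.8 and 621.5 at 24 h, 615.3, 618.5 and 649.0 at 32 h and 668.9, 630.5 and 635.7 at 48 h with doxycycline. Without it the signals were 530.9, 541.4 and 567.5, then 614.9, 569.4 and 580.2, then 558.8, 571.1 and 598.1. The groups were apart at each time, at 32 h by 615.3 against 614.9 (0.15 ± 0.03, adjusted p = 0.0113). The direction rests on the brightest probe set: of 3, 2 were positive, and the mean of the 3 gave -0.024. Among 27 tested plasma cell genes PRDM1 alone was called, with a list median of 0.02. TNFRSF17, the plasma cell receptor BCMA (0.13 ± 0.03, adjusted p = 0.162), and IRF4, a factor on which myeloma cells depend (0.12 ± 0.03, adjusted p = 0.225), had positive changes that were not called.

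**Figure D3:**
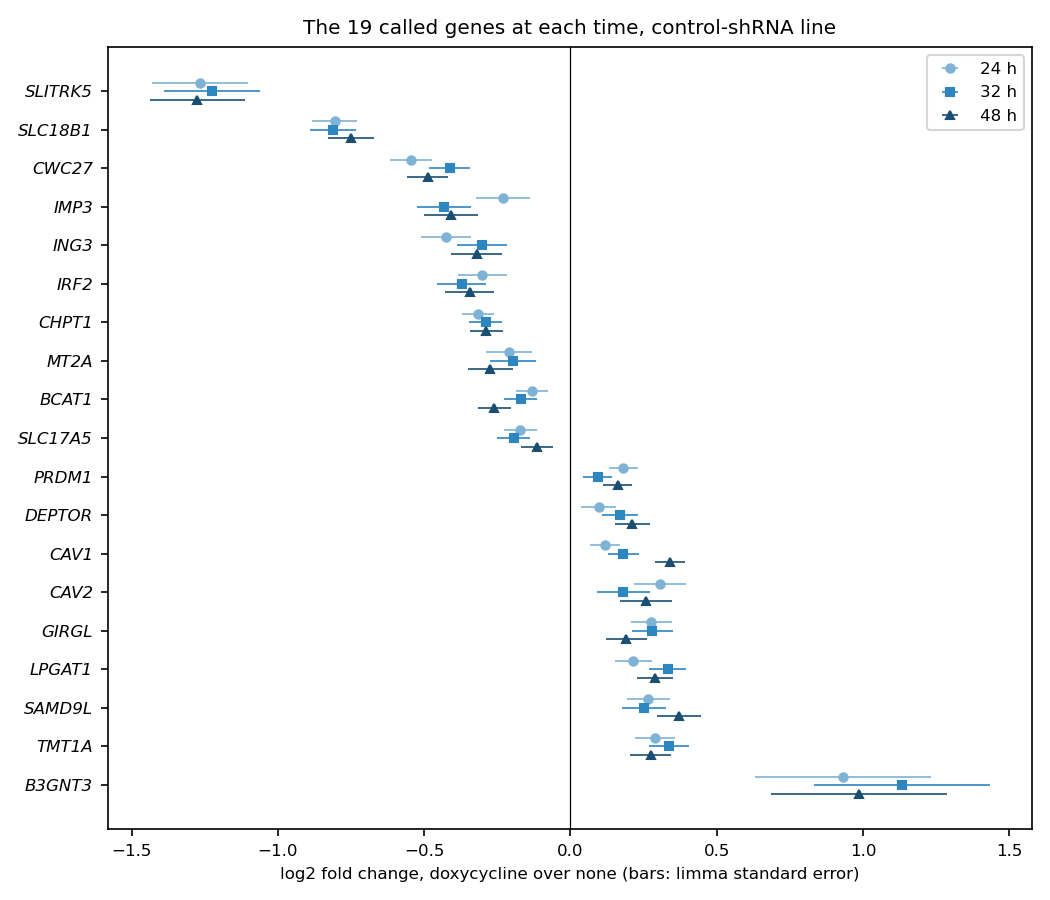
Log2 fold change, doxycycline over none (x), of the 19 called genes (y) at 24 h (circles), 32 h (squares) and 48 h (triangles) in the control-shRNA line, with limma standard errors. Each gene, called on the mean of these times, keeps its side of 0 at the 3 times, SLITRK5 from -1.28 to -1.23. CAV1 is the gene whose 48 h value stands farthest above its 24 h value relative to the error.

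At 24 h 6 genes were called (0.0408%), 1 higher (0.0068%) and 5 lower (0.034%), with 549 (3.73%) at an unadjusted p under 0.05. At 32 h the call fell on 7 genes (0.0476%), 3 higher (0.0204%) and 4 lower (0.0272%), with 834 (5.67%) unadjusted. At 48 h there were likewise 7 (0.0476%), 3 higher (0.0204%) and 4 lower (0.0272%), with 873 (5.94%) unadjusted. SLITRK5, SLC18B1, CWC27 and CHPT1 were called at each of the 3 times. ING3 joined them at 24 h, LPGAT1 and TMT1A at 32 h, and CAV1 and SAMD9L at 48 h. Leaving out 1 array gave 3 to 6 calls at 24 h, 2 to 8 at 32 h and 4 to 9 at 48 h. A single gene at each time was called there and not over the mean. MATK, a kinase that opposes Src-family kinases, was called at 24 h (adjusted p = 0.011), at 39.0, 40.1 and 29.2 with doxycycline and 2.1, 1.2 and 20.5 without it. As 2 of these 3 undosed signals lay below the array medians, its log2 change of 1.92 ± 0.35 holds for the added 5.4 and is no exact fold. At 48 h its signals overlapped, at 21.2, 19.5 and 23.0 with doxycycline and 30.0, 13.8 and 30.3 without it. XYLB, a xylulose kinase, was called at 32 h (1.05 ± 0.22, adjusted p = 0.047), where it read 36.8, 40.2 and 37.2 with doxycycline and 17.9, 15.3 and 13.8 without it. The undosed signals of 15.3 and 13.8 lay below the medians of their arrays, 20.4 and 16, so this change is no exact fold either. SLC44A1, a choline transporter, was called at 48 h (0.29 ± 0.06, adjusted p = 0.0482), at 1099, 1199 and 1081 with doxycycline and 979.3, 885.1 and 890.5 without it. Over the mean of the 3 times, 3 of the 6 SLC44A1 probe sets had a positive change and none was called.

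No gene was called for a change of the effect between 24 and 48 h (0 of 14704, 0%, limma), with 679 (4.62%) at an unadjusted p under 0.05 and a smallest adjusted p of 0.978. Among the 19 called genes only CAV1 had an unadjusted p under 0.05 in that test (0.005). An F test of the 3 times together, which also finds genes that move in opposite directions at different times, called 14 genes (0.0952%), all of them among the 19. Across the 7920 genes with a signal of at least 100, effects at different times, which share no arrays, correlated at r = 0.06 for 24 and 32 h, -0.01 for 24 and 48 h and 0.19 for 32 and 48 h. The corresponding values in the BMI1-shRNA line were 0.46, 0.48 and 0.59. Over all 14704 genes they were 0.01, -0.0001 and 0.05 in the control-shRNA line and 0.11, 0.11 and 0.16 in the BMI1-shRNA line. Genes are not independent replicates, and these values are given as descriptions.

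Genes of mitochondrial translation, the process that tetracyclines are known to slow, are described next. With 0.129% of all genes called, lists of this size would hold a called gene only rarely, so the counts of 0 in these and the following lists are no result about them, and the sizes and intervals are given instead. The 7 tested mitochondrially encoded genes had changes between -0.03 (COX1, a subunit of cytochrome oxidase) and 0.19 ± 0.13 (COX3, another), with a median of -0.01. COX1 read 14807 ± 2033 with doxycycline and 15090 ± 1978 without it. None of 46 mitochondrial ribosome and translation genes was called, with changes from -0.11 (TSFM, an elongation factor) to 0.10 (MRPL24, a protein of the large subunit) and a median of 0.01. None of 42 nuclear genes of oxidative phosphorylation was called, with changes from -0.09 (NDUFA9) to 0.10 (NDUFA5), both subunits of complex I, and a median of 0.01. In these 3 lists each of the 7, 46 and 42 intervals lay within 1.5-fold. These are levels of RNA; protein synthesis was not measured.

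Stress responses that are known to follow a mitochondrial defect were read in the same way. Among 43 tested targets and members of the ATF4 pathway none was called, the median was 0.03, and 40 of the intervals lay within 1.5-fold. The largest change was that of the dim GDF15, a secreted stress cytokine (0.41 ± 0.27, adjusted p = 0.891), at 14.6 ± 3.90 with doxycycline and 10.7 ± 6.03 without it. DDIT3, the stress factor CHOP, changed by 0.17 ± 0.14 and ATF4 by -0.03 ± 0.06, and neither was called. Of 23 mitochondrial chaperone, protease and dynamics genes, 27 unfolded protein response genes and 24 heat shock and oxidative stress genes none was called. The same held for 13 iron genes and 21 matrix metalloproteinases and their inhibitors, although for 8 of the latter the interval reached beyond 1.5-fold.

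For growth and survival genes the list medians are given in brackets. None of 43 G1/S and replication genes (median -0.0011), 40 G2/M and mitosis genes (0.0040), 24 MYC targets (-0.0037), 20 pro-apoptotic genes (-0.01), 10 anti-apoptotic genes (0.01), 24 p53 targets (-0.01) or 7 CDK inhibitors (-0.07) was called, and the same was true of 26 Polycomb genes (-0.0049). MYC changed by 0.02 ± 0.05. BCL2L11, the pro-apoptotic protein BIM, changed by 0.07 ± 0.05 (adjusted p = 0.891; 580.1 ± 45.2 with doxycycline, 552.4 ± 40.2 without). CDKN1A, the inhibitor p21, read 74.4 ± 13.1 with doxycycline and 86.1 ± 7.44 without it (-0.21 ± 0.10, adjusted p = 0.814). Glycolysis and hypoxia (33 genes), cholesterol and fatty acid synthesis (26), NF-kB targets (21), immediate early genes (26), cytosolic ribosomal proteins (21) and replication histones (11) had no called member either.

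**Figure D4:**
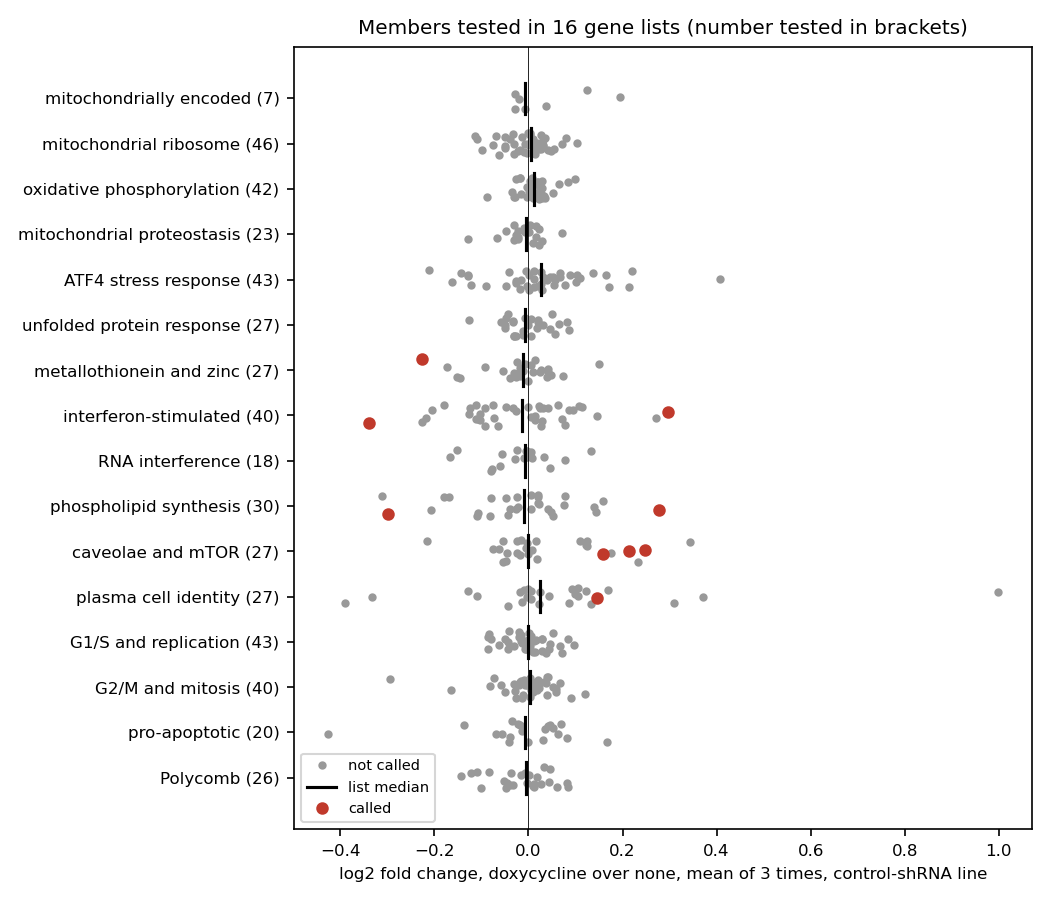
Log2 fold change, doxycycline over none, mean of 3 times in the control-shRNA line (x), of the tested members of 16 gene lists (y, number tested in brackets); grey points are genes not called, red points called genes, black bars list medians. All list medians drawn lie between -0.02 and 0.03, and the red points are MT2A, IRF2, SAMD9L, CHPT1, LPGAT1, DEPTOR, CAV1, CAV2 and PRDM1.

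The same drug and times in the BMI1-shRNA line, on other arrays and with another hairpin, gave 11 of the 19 genes called in the same direction (8.3% of all genes were called there), 16 with the same sign and 3 with the opposite sign. SLITRK5 changed by -1.26 ± 0.09 in the control-shRNA line and by -1.55 ± 0.09 in the BMI1-shRNA line, where it read 31.8 ± 8.83 with doxycycline and 101.3 ± 11.7 without it (n = 9 each). The difference between the lines was not called (adjusted p = 0.306). Effects in the control-shRNA and BMI1-shRNA lines were also near each other for CAV1 (0.21 ± 0.03 and 0.18 ± 0.03), SAMD9L (0.30 ± 0.04 and 0.35 ± 0.04), IRF2 (-0.34 ± 0.05 and -0.32 ± 0.05) and PRDM1 (0.15 ± 0.03 and 0.14 ± 0.03). Their line differences had adjusted p of 0.836, 0.785, 0.945 and 0.998. A p that misses the threshold does not show equal effects.

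For 7 of the 19 the effect differed between the lines (3.79% of all genes were called in that test). The 19 were chosen by their control-line effect, which is part of this test, so the shares cannot be compared. TMT1A rose in the control-shRNA line (0.30 ± 0.04) and changed by -0.09 ± 0.04 in the BMI1-shRNA line, a difference of 0.39 ± 0.06 (adjusted p = 6.69e-06). BCAT1 (-0.19 ± 0.03, against 0.03 ± 0.03) and GIRGL (0.25 ± 0.04, against -0.01 ± 0.04) differed by -0.21 ± 0.04 and 0.25 ± 0.06. SLC18B1 fell further in the control-shRNA line (-0.79 ± 0.05, against -0.52 ± 0.05, adjusted p of the difference 0.00866). MT2A fell less there (-0.23 ± 0.05, against -0.52 ± 0.05, adjusted p 0.00258). In the BMI1-shRNA line 6 of the 8 metallothioneins were called lower, where 8.3% of all genes were called in either direction. As 7 of the 8 probe sets can cross-hybridise, these calls cannot be counted as separate genes. B3GNT3 differed by 0.84 ± 0.25 with 5.4 added to its dim signals. ING3 differed by -0.24 ± 0.07 on its brightest probe set, at the threshold (adjusted p = 0.05 after rounding). Another ING3 probe set (208.8 ± 28.8 with doxycycline and 225.1 ± 38.9 without it in the control-shRNA line) had the opposite order, at -0.10 in the control-shRNA line and -0.38 in the BMI1-shRNA line, so the sign of the ING3 difference rests on the probe set. The effects in the lines correlated at r = 0.06 across the 7920 brighter genes and at -0.0004 across all 14704.

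**Figure D5:**
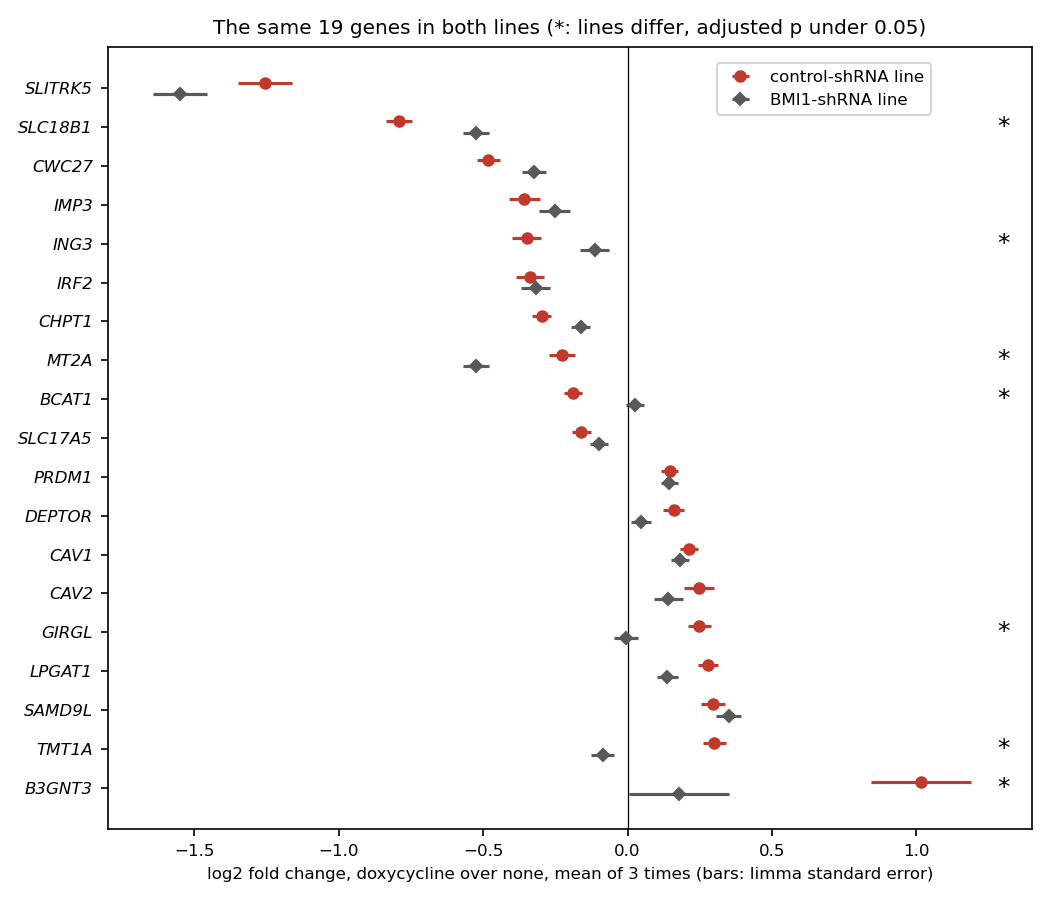
Log2 fold change, doxycycline over none, mean of 3 times (x), of the 19 called genes (y) in the control-shRNA line (red circles, upper of each pair) and in the BMI1-shRNA line (grey diamonds), with limma standard errors; asterisks mark the 7 genes whose effect differed between the lines at an adjusted p under 0.05. SLITRK5, CWC27, IRF2, CAV1 and SAMD9L lie on the same side of 0 in both lines, while TMT1A, GIRGL and B3GNT3 stand apart from 0 in the control-shRNA line and within 0.2 of it in the BMI1-shRNA line.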

How the data were processed

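Per the labels' protocols, total RNA of RPMI-8226 cells was labelled with biotin and hybridized to Affymetrix U133 Plus 2 arrays, 1 array per sample. Deposited values are probe set intensities on a linear scale, MAS5 signals by name, with no version, in the submitters' processing notes. Each array's mean, trimmed of 2% of values on either side, was 150.02 to 150.03, so the authors had scaled signals to 1 target. Read depth does not apply to arrays. The analysis used log2(signal + 5.4), 5.4 being the 25th percentile of all values. Of 54675 probe sets, 62 array controls were left out and 35232 were kept, where at least 3 of 42 arrays read at or above their own median. The probe annotation gives 41097 probe sets a single symbol, 1801 several and 11721 none; a gene was read by its brightest kept probe set with a single symbol.

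A model with 14 group means over 42 arrays (28 residual degrees of freedom) was fitted in R 4.3.3 by limma 3.58.1 with an intensity trend, two-sided tests and Benjamini-Hochberg adjustment over 14704 genes, and was tested on simulated data. Doxycycline was compared with none within each time, and the effects were averaged, subtracted between 48 and 24 h and subtracted between lines. BMI1-shRNA arrays at 0 h, whose labels conflict on line and doxycycline, entered only the variance. The genes and the 39 gene lists (1016 symbols, 867 tested) were chosen with earlier results of these data known, several lists around genes already known to be called, and lists were described by counts and medians without a set test. All called genes, the 10 next by p, genes called at single times, up to 4 members of each list with the largest change and a few fixed genes could be named. Alternatives were other pseudocounts, quantile normalization, other filters and probe set rules, no trend, fewer arrays, a replicate block and leaving out each array. Replicate numbers did not pair the control-line arrays (mean r of deviations -0.0003 for equal numbers).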

Additional observations from a re-analysis of the deposited data

Results flagged for a closer look

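The doxycycline effect differed between the lines in 558 of 14704 genes by the interaction test of limma (control-shRNA minus BMI1-shRNA, log2 scale, 18 arrays in each line), of which 13 are named here. Of the called genes these differences were 0.39 for TMT1A, 0.84 for B3GNT3, 0.30 for MT2A, 0.25 for GIRGL, -0.21 for BCAT1, -0.27 for SLC18B1 and -0.24 for ING3. The difference of ING3 lay at the threshold (adjusted p = 0.05 after rounding), and another probe set of the gene gave the opposite sign.

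Of genes not called in the control-shRNA line, JARID2 differed by -0.36 (adjusted p = 5.55e-05), BCL2L11 by -0.32 (adjusted p = 9.17e-04), MT1X by 0.29 (adjusted p = 0.0204), MT1H by 0.34 (adjusted p = 0.0251), PPP2R5E by 0.26 (adjusted p = 0.0251) and PANX1, a membrane channel, by -0.28 (adjusted p = 2.87e-04). PANX1 changed by -0.16 ± 0.04 in the control-shRNA line and by 0.12 ± 0.04 in the BMI1-shRNA line.

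A pair of probe sets with no symbol in the annotation used here were called in the fit of all probe sets and lie outside the comparison of genes. Probe set 202763_at changed by -0.34 ± 0.05 (680.3 ± 72.9 with doxycycline, 859.1 ± 50.2 without, adjusted p = 3.65e-04) and by -0.34 in the BMI1-shRNA line. Probe set 208909_at changed by -0.21 ± 0.04 (3516 ± 266 with doxycycline, 4052 ± 264 without, adjusted p = 0.0184) and by -0.23 in the BMI1-shRNA line.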

How the results depend on the processing

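Of the 19 called genes, 11 kept the call without each of the 18 arrays and in each of the 11 planned settings that tested them. B3GNT3, which is among these 11, did not pass the filter at the 75th percentile and was not tested there. Means of 2 of the 3 times, settings chosen after seeing the data, also called 9 of the 11. They were SLITRK5, SLC18B1, CWC27, CHPT1, IMP3, IRF2, LPGAT1, GIRGL and SAMD9L. DEPTOR lost the call without any of 14 arrays, CAV2 without any of 9, MT2A of 4 and SLC17A5 of 3. BCAT1, PRDM1, DEPTOR, CAV2, MT2A and SLC17A5 lost it with the 18 control-line arrays alone, and all of these but MT2A with the replicate block. ING3, TMT1A, CAV2 and SLC17A5 lost it as means of probe sets. DEPTOR lost it in 6 of the 11 planned settings. Of the genes that kept the call in each planned setting that tested them, B3GNT3 lost it in the mean of 24 and 48 h. CAV1 lost it in that of 24 and 32 h. PRDM1 reversed, to -0.024, as the mean of its probe sets. Of 159 named genes not called, 10 were called in some setting.

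The count over the mean of the 3 times was 12 for the mean of 24 and 32 h, 13 with the 18 control-line arrays alone and 14 with the replicate block. The block gave 4 at 32 h and 4 at 48 h. At 24 h it was 3 with the mean of probe sets and 3 with the 18 arrays alone. At 32 h it was 1 with the mean of probe sets, 3 with all probe sets as features and 4 with the 18 arrays. At 48 h it was 11 after quantile normalization, 4 with all probe sets and 3 with the 18 arrays. All probe sets gave 893 calls for the line difference, and the 18 arrays gave 9 in the F test; with them the line difference could not be fitted. Leaving out an array gave 16 to 21 calls over the mean, 3 to 6 at 24 h, 2 to 8 at 32 h, 4 to 9 at 48 h, 0 to 1 between 48 and 24 h, 494 to 585 for the line difference and 13 to 18 in the F test. At 24 h, 3 genes were called when dosed replicate 1 or 2 was left out. The 32 h count was 2 without undosed replicate 3 or dosed replicate 2 and 4 without undosed replicate 1 or 2 or dosed replicate 3. The 48 h count was 4 without undosed replicate 3, and the call between 48 and 24 h appeared without undosed 24 h replicate 3. The cause of these shifts was not tested. Signals near the floor limit the precision of dim genes such as B3GNT3.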

Other observations

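Among the 10 genes next to the threshold, the TEAD cofactor VGLL2 changed by 1.09 ± 0.25 at signals of 17.5 ± 4.0 with doxycycline and 6.40 ± 6.38 without it (adjusted p = 0.0792). NFS1, the cysteine desulfurase of iron-sulfur cluster assembly, changed by -0.20 ± 0.05 (adjusted p = 0.091), and by -0.19 in the BMI1-shRNA line, where it was called.

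JARID2, a cofactor of the Polycomb complex PRC2, changed by -0.14 ± 0.04 in the control-shRNA line (adjusted p = 0.373; 658.7 ± 41.9 with doxycycline, 728.4 ± 52.8 without) and by 0.22 in the BMI1-shRNA line, where it was called. FCRL5, a plasma cell surface receptor, changed by 1.00 ± 0.33 at a dim signal of 23.1 ± 11.8 with doxycycline and 8.90 ± 6.56 without it, and was not called (adjusted p = 0.462).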
